A study of Bos taurus with 10 samples.

Results

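The cytosolic ribosomal proteins are the protein components of the large and small subunits of the cytoplasmic ribosome. They were taken here as every probe set whose only annotated gene symbol has the form of an RPL, RPLP, RPS or RPSA name. This rule found 97 of the 24016 probe sets tested, from 68 of 9155 named genes. A probe set is the group of short probes with which the array reads 1 transcript. The values of 77 of these probe sets, from 65 genes, varied between arrays by at least 0.44 on the log2 scale, and the other 20 were flat, with a span of at most 5.69e-07. *RPL37*, *RPL3L* and *RPS19* had flat probe sets only, so nothing can be read about these 3 genes. *FAU*, which encodes a small-subunit protein fused to a ubiquitin-like protein, does not match the rule and is described with the ribosome-associated genes.

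In vitro matured (IVM) bovine oocytes, in 5 pools, were set against 5 pools of immature oocytes at the germinal vesicle (GV) stage. Cumulus-oocyte complexes came from follicles of 3 to 8 mm on slaughterhouse ovaries. IVM oocytes had spent 24 h inside their cumulus at 39°C under 5% CO2, in medium with 10% fetal calf serum and 10 ng/ml of epidermal growth factor, before they were denuded. Immature oocytes were denuded at 0 h without culture, and in both groups the oocytes were frozen 10 to a tube and pooled by day of collection, so that each array holds the oocytes of many cows. From each pool 100 ng of total RNA was amplified in a two-cycle, 3′-directed procedure and hybridized to an Affymetrix bovine array. The p-values measure the spread between these pools.

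A growing oocyte builds a store of ribosomes and of the mRNAs that encode their proteins, and both serve the embryo until its own genome is active. The subunits hold each protein once, apart from the proteins of the stalk, so somatic cells make them in step, largely by controlling the translation of mRNAs that begin with a run of pyrimidines. In frog oocytes, maturation is known to strip ribosomal protein mRNAs of their poly(A) tails and to stop their translation. The arrays measured transcript signal after amplification from the 3′ end, not translation. For its PCR work the paper names preferential amplification by poly(A) tail length as a possibility. Whether lower or higher array values reflect abundance or tail length was not tested.

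Few ribosomal protein transcripts separated IVM from immature oocytes. At the false discovery rate of the study's methods (adjusted p under 0.0001), 1 of 97 probe sets was lower in IVM oocytes and 0 were higher, where 5.78% of all probe sets passed, 4.81% lower and 0.974% higher. Among the varying probe sets of the array it was 14.5%, with 12.1% lower and 2.38% higher. That probe set reads *RPL9*, a large-subunit protein. At the looser threshold of 0.05, 6 members had lower and 8 had higher values in IVM oocytes, 14.4% of the 97, where 30.5% of all probe sets passed, 15% lower and 15.5% higher. Among these 14 were 2 flat probe sets whose groups differed by at most 1.44e-08, which leaves 5 lower and 7 higher of the 77 that vary, 15.6% against 65.7% of the 9460 varying probe sets on the array. All adjusted p-values below come from this limma fit over the whole array (Benjamini-Hochberg) unless stated otherwise.

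The ribosomal proteins differed from the rest of the array in how much they varied between pools of the same group. Their median difference between groups was -0.23 on the log2 scale (IVM minus immature, 48 probe sets below 0 and 29 above), against 0.18 over all varying probe sets. Of the varying members 62.3% lay below 0, against 42.5% of all varying probe sets. The median size of the difference, sign aside, was 0.48 for the ribosomal proteins and 0.80 for all varying probe sets. The median SD within a group was 0.63 for the ribosomal proteins and 0.27 for all varying probe sets, and 64.9% against 15.7% had an SD of at least 0.5. The ribosomal proteins were also brighter, with a median level of 10.07 to 11.63 on the arrays, against 8.38 to 8.67. The SDs were not matched for level. Of a ribosomal protein's squared variation over the 10 arrays, a median of 14.9% lay between the groups, against 69.5% for all varying probe sets. The groups did not overlap for 7 of the 77 varying members (9.09%), where they did not overlap for 56.3% of all varying probe sets. In 4 of them (against 29.3%) IVM lay below, and in 3 (against 27%) above. Counting the flat ones, it was 8 of 97 (8.25%), against 24.2% of all probe sets, 12.7% with IVM below and 11.6% with IVM above.

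**Figure D1:**
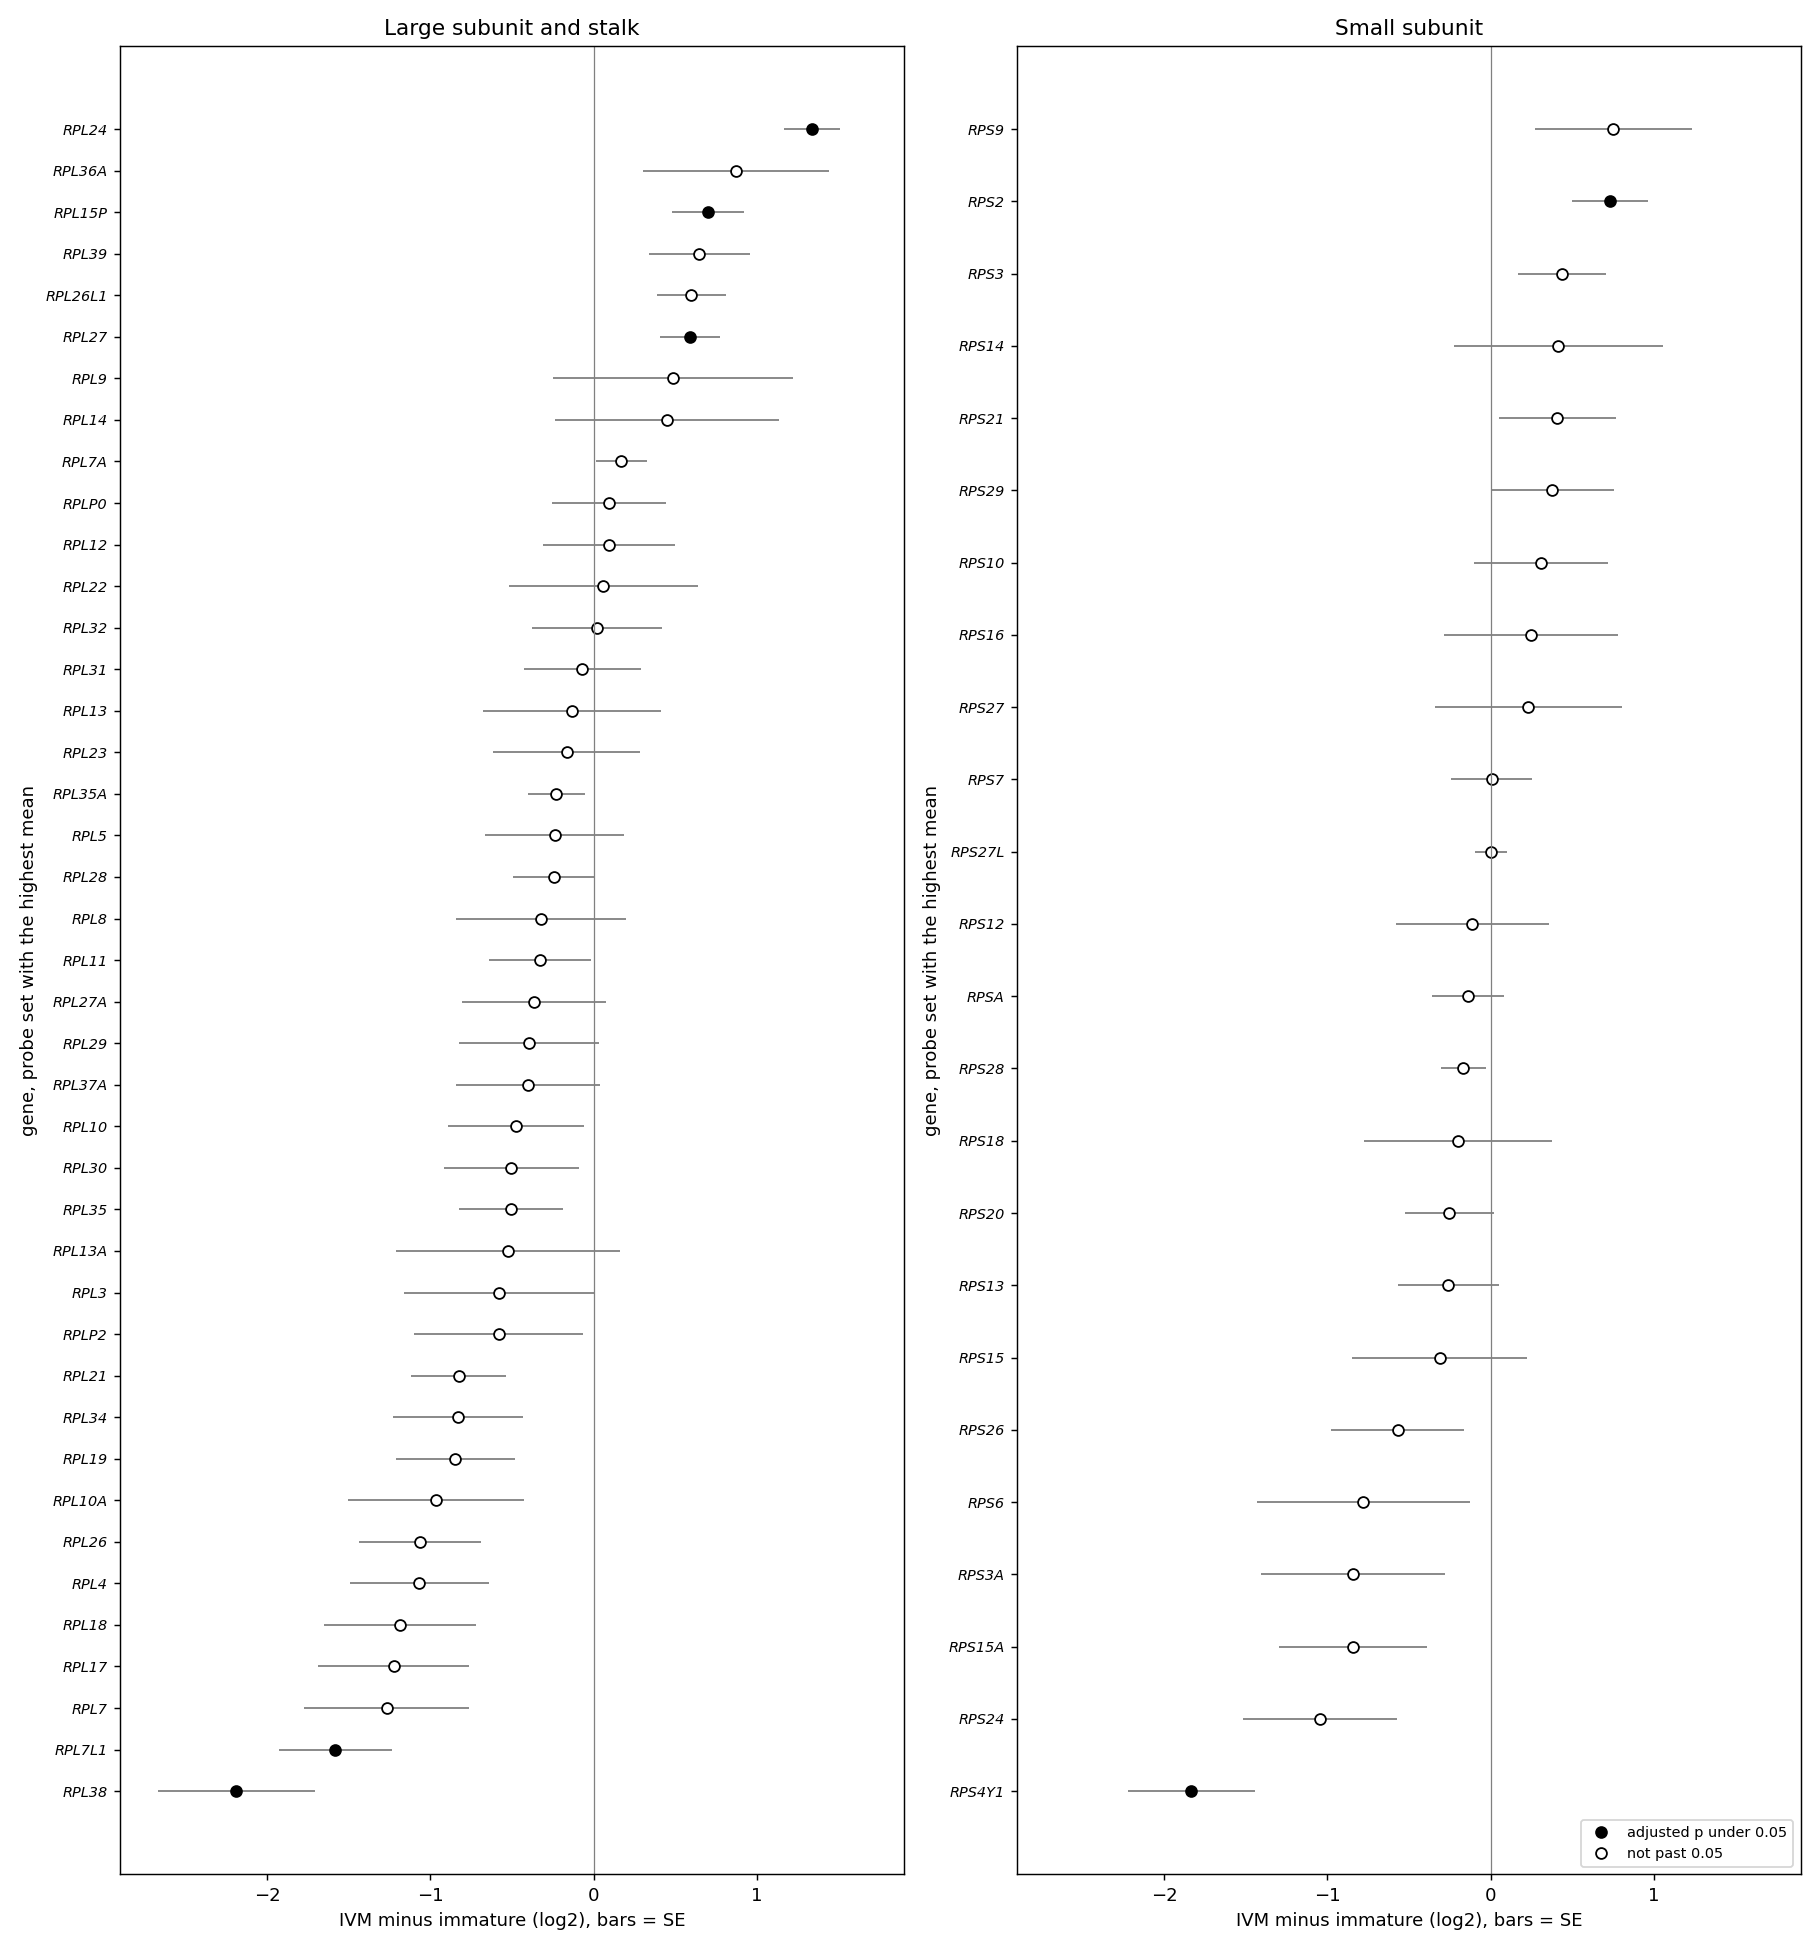
IVM minus immature difference in log2 units (x axis) for each of the 65 genes with a varying probe set (y axis, the probe set with the highest mean), with 1 standard error from limma as the bar and filled points for an adjusted p under 0.05. Points to the left are lower in IVM oocytes, 3 filled ones lie there and 4 lie to the right, and centring the arrays on the poly-A controls would move every point 0.94 to the left.

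The spread within groups was shared. On every array but immature array 1, which was evenly split, most ribosomal proteins deviated from their own group's mean in the same direction. Of the 77 probe sets, 4, 68, 59, 76 and 5 lay above their IVM mean on IVM arrays 1 to 5, and 39, 3, 69, 75 and 13 lay above their immature mean on immature arrays 1 to 5. The median deviations were -0.77, 0.25, 0.22, 0.75 and -0.55 on IVM arrays 1 to 5, and 0.00, -0.75, 0.38, 0.59 and -0.21 on immature arrays 1 to 5. Over all 9460 varying probe sets the medians stayed between -0.07 and 0.05. The median level of the ribosomal proteins was 10.07, 11.03, 11.19, 11.58 and 10.24 on the IVM arrays, and 11.01, 10.19, 11.36, 11.63 and 10.74 on the immature arrays. IVM arrays 1 and 5 and immature array 2 were thus the low ones, and array 4 was the high one in both groups.

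**Figure D2:**
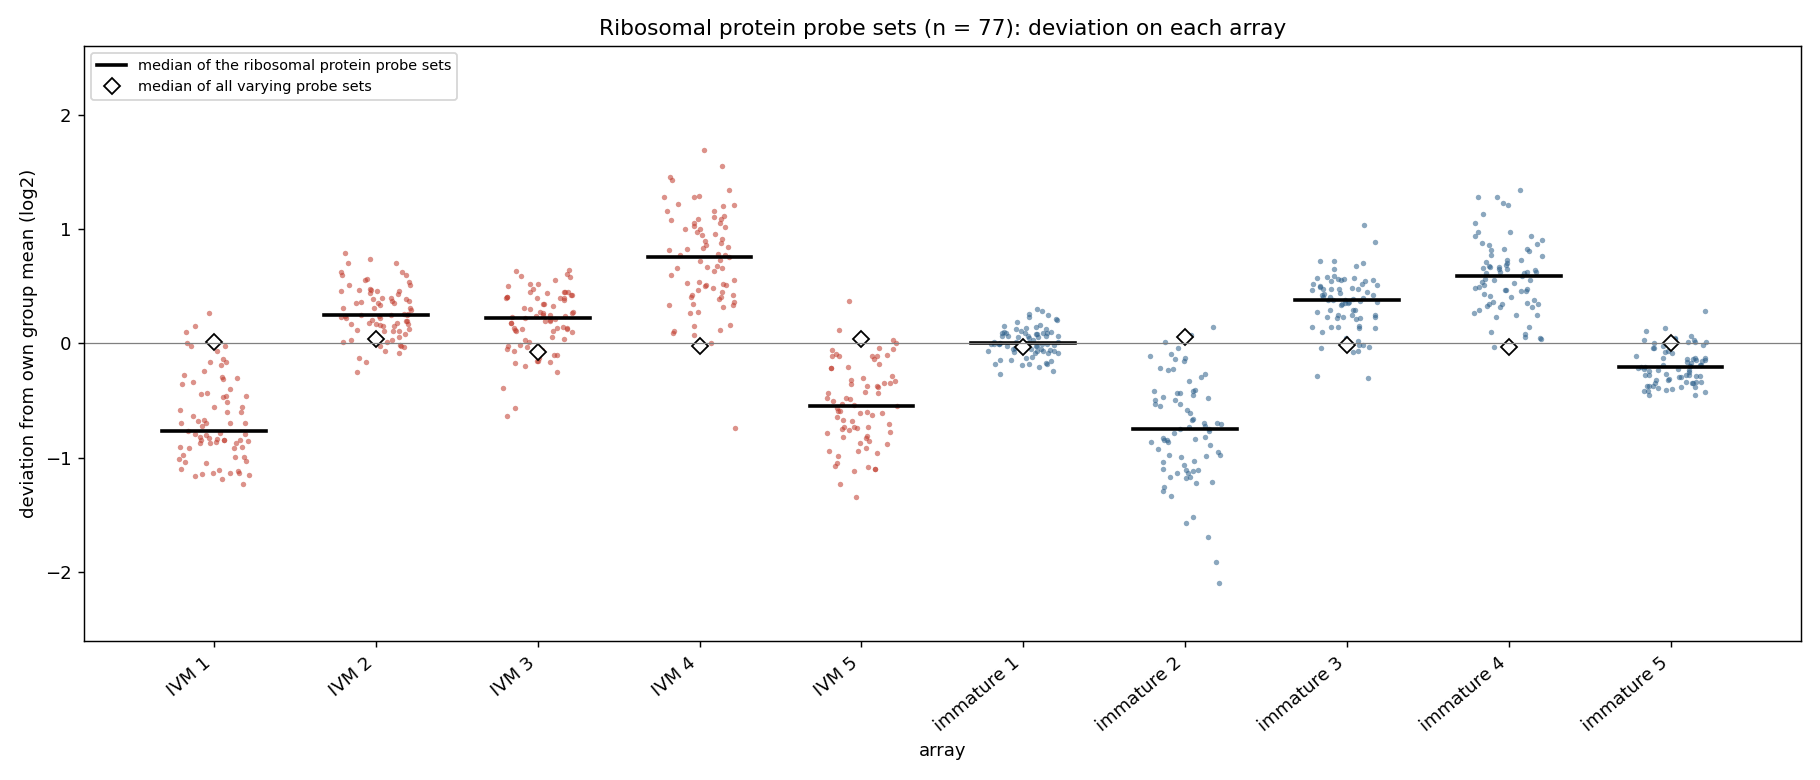
Deviation of each of the 77 varying ribosomal protein probe sets from the mean of its own group (y axis, log2) on each array (x axis, IVM in red, immature in blue), with the median of the ribosomal proteins as a bar and the median of all varying probe sets as a diamond. The ribosomal proteins sit low on IVM 1, IVM 5 and immature 2 and high on IVM 4 and immature 4, and the diamonds stay near 0.

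The order of the arrays was nearly the same from gene to gene. IVM array 4 was the highest IVM array for 66 of 77 probe sets, and IVM array 1 or 5 was the lowest for 71. For 63 probe sets both IVM arrays 1 and 5 lay below the other 3. Immature array 2 was the lowest immature array for 72, and array 3 or 4 the highest for 72. A single component held 89.9% of the squared within-group deviations of the ribosomal proteins, against 68.0% for all varying probe sets, and 75 of the 77 probe sets had the same sign on it. The large subunit (89.9%) and the small subunit (91.3%) were alike in this. The exceptions in sign were the dimmer varying probe set of *RPL9* and the only one of *RPL26L1*, a close relative of *RPL26*. When the median ribosomal protein level of the array was subtracted from each value, the median SD within a group was 0.29, and it was smaller than before for 59 of the 77. Since the median is taken over the same probe sets, part of that fall is built in.

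Some transcripts of somatic follicle cells moved with the ribosomal proteins from pool to pool and others did not. Of the 15 genes listed as cumulus and granulosa markers, 14 have a probe set and 13 vary, and *FOXL2*, which defines granulosa cells, was flat. *INHA*, the alpha subunit of the hormone inhibin, which granulosa cells secrete, had log2 values of 9.30, 10.69, 10.44, 11.91 and 8.76 on IVM arrays 1 to 5, against 11.56, 7.99, 12.59, 12.53 and 10.98 on immature arrays 1 to 5. It was lowest on IVM arrays 1 and 5 and immature array 2, the arrays on which the ribosomal proteins were low. *FST* (follistatin, an activin-binding protein) had 8.37, 9.91, 9.69, 11.40 and 8.10 on the IVM arrays and 11.67, 7.65, 13.08, 13.01 and 11.02 on the immature arrays. *SERPINE2*, a protease inhibitor of granulosa cells, had 11.12, 12.43, 12.04, 13.59 and 10.53 on the IVM arrays and 11.80, 9.95, 12.56, 12.99 and 11.71 on the immature arrays. These 3 were picked after their values were seen, and so were the following 5, which went another way in at least 1 group. *HAS2* is an enzyme that makes hyaluronan in the expanding cumulus. Its brightest probe set was highest on IVM array 1 (11.25, against 11.24 on array 4) and immature array 2 (10.19). A dimmer one was highest on IVM array 4 (7.54) and lowest of its group on IVM array 1 (6.95) and immature array 2 (6.66). In the other dimmer one IVM array 1 was again the highest IVM array (8.21, against 8.18 on array 4). *PTGS2*, a prostaglandin synthase (its brightest probe set), and *PTX3*, a protein of the cumulus matrix, had their highest immature value on array 2 (8.84 and 5.20). A dimmer *PTGS2* probe set had its lowest immature value there (6.04) and its highest IVM value on array 4 (7.15). *CYP19A1*, the aromatase, and *FSHR*, the receptor of follicle-stimulating hormone, had their lowest IVM value on array 4 (6.10 and 6.40). Their IVM values reached only 6.37 and 6.70, near the flat *FOXL2* probe sets (6.54 and 6.71), and the immature values of *PTX3* lay below these. In immature oocytes *CYP19A1* and *FSHR* were lowest on array 2 (6.71 and 6.37), as the ribosomal proteins were. Over the whole list, 3, 9, 7, 11 and 2 of the 13 genes lay above their group mean on IVM arrays 1 to 5, and 6, 3, 9, 11 and 2 on immature arrays 1 to 5. The mean log2 value of the 13 ranged between 8.87 and 11.12 on the IVM arrays and between 7.27 and 9.31 on the immature arrays.

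Oocyte transcripts ran the other way on the extreme arrays. All 8 oocyte markers with a probe set varied, among them *GDF9*, a growth factor of the oocyte, and *ZP4*, a protein of the zona pellucida. Of these 8, 7, 0, 5, 0 and 8 lay above their group mean on IVM arrays 1 to 5, and 6, 8, 4, 0 and 4 on immature arrays 1 to 5. Each of the 8 had its lowest IVM value on array 4, where 76 of the 77 ribosomal protein probe sets lay above their mean. The mean log2 value of the 8 ranged between 10.10 and 11.55 on the IVM arrays and between 12.58 and 13.10 on the immature arrays. Blood and immune markers were flat for 5 of 5 genes, so nothing can be read about them. In a pool of oocytes, fewer somatic cells and less RNA per cell cannot be told apart, and the part of the follicle cell transcripts in the ribosomal protein movement was not tested.

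**Figure D3:**
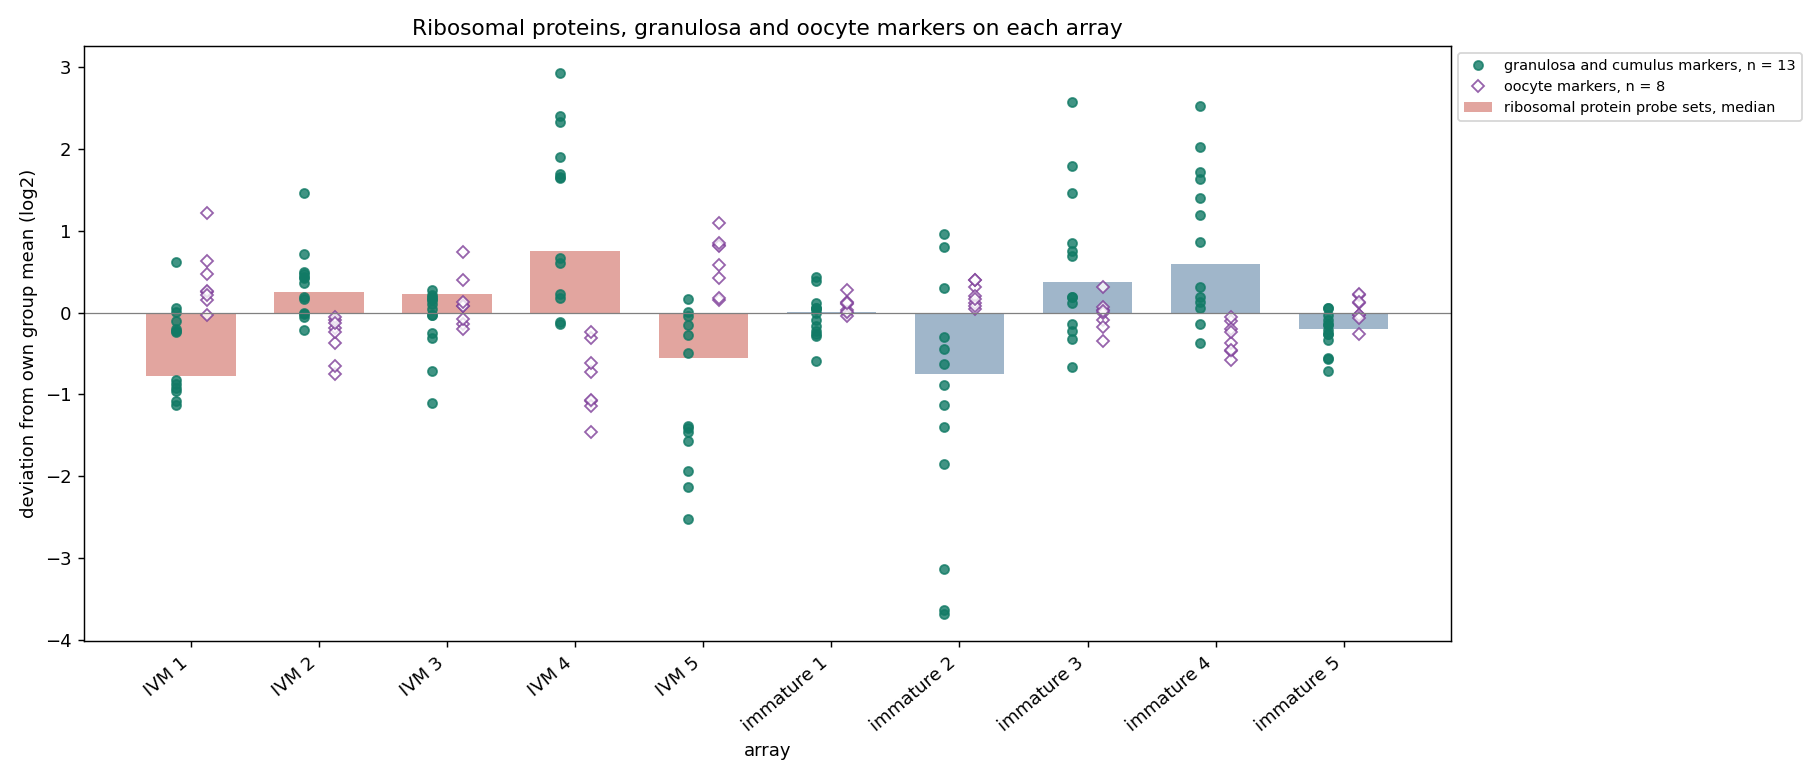
Deviation from the mean of the own group (y axis, log2) on each array (x axis): bars give the median of the 77 ribosomal protein probe sets (IVM in red, immature in blue), circles the 13 varying cumulus and granulosa markers and open diamonds the 8 oocyte markers. On IVM 4 and immature 4, 11 of 13 circles and 0 of 8 diamonds lie above 0, and on IVM 5 and immature 2 all 8 diamonds do.

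Some properties of whole arrays also differed. IVM array 4 had the lowest mean correlation with the other arrays of its group (r = 0.933 across probe sets), against 0.954 to 0.974 for the other IVM arrays and 0.970 to 0.987 for the immature arrays. The array medians lay between 7.04 and 7.10. The poly-A control transcripts, which are added to the RNA before amplification, were at 7.95 ± 0.20 on the IVM arrays and 7.02 ± 0.15 on the immature arrays (SD, n = 5 each), a difference of 0.94. They were lowest among the IVM arrays on arrays 5 and 1 (7.73 and 7.80, against 7.96 to 8.23 on the others), where the ribosomal proteins were low too, and highest among the immature arrays on array 4 (7.24, against 6.85 to 7.04), where the ribosomal proteins were high. Other arrays broke this order. The highest IVM value was on array 2 (8.23, against 8.05 on array 4). The lowest immature value was on array 3 (6.85), where the ribosomal protein median was 11.36, and not on array 2 (6.93), where it was 10.19. The immature values of the poly-A controls lay near the array medians, and flat members sat at up to 7.60. Whether these control values lie at a floor was not tested. The hybridization controls were at 10.75 to 11.22 on the IVM arrays and on immature arrays 4 and 5, and at 9.38 to 9.73 on immature arrays 1 to 3. On IVM arrays 1 to 5 they were at 11.22, 10.85, 10.79, 10.75 and 11.02, the reverse of the order of the ribosomal protein medians. Among immature arrays 1 to 3 they were highest on array 2 (9.73, against 9.38 and 9.39), where the ribosomal proteins were lowest, but the order over all 5 immature arrays was not the reverse. The part of either control in the ribosomal protein movement was not tested. Without IVM array 4, 12 members were lower and 4 higher at an adjusted p under 0.05 (15.1% and 17.3% of all probe sets in that fit), and the median difference was -0.37.

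In the large subunit, 4 of 47 varying probe sets were lower in IVM oocytes and 5 were higher at an adjusted p under 0.05 (39 genes). Over all varying probe sets of the array, 31.7% were lower and 34% higher. The median difference was -0.33, with 33 of the 47 below 0, where 42.5% of all varying probe sets lay below 0. *RPL38*, a small protein at the surface of the subunit that in mice is needed for the translation of Hox mRNAs, had log2 values of 8.80, 10.39, 10.04, 11.36 and 9.08 on IVM arrays 1 to 5, against 12.23, 11.60, 12.27, 12.45 and 12.10 on immature arrays 1 to 5. No IVM value reached the lowest immature value, and IVM array 4 came closest. It had the largest difference of all members, -2.19 (SE 0.48, adjusted p = 0.00903), or 4.56-fold lower in IVM oocytes. Relative to the median ribosomal protein of each array the difference was -2.03. *RPL7L1*, a relative of *RPL7* that takes part in building the large subunit, had 8.01, 9.29, 8.63, 9.65 and 8.09 on IVM arrays 1 to 5, against 10.13, 10.16, 10.03, 10.66 and 10.60 on immature arrays 1 to 5. Its groups did not overlap either, and the difference was -1.58 (SE 0.35, adjusted p = 0.00896), while a second, dimmer probe set differed by -0.33 (SE 0.19, adjusted p = 0.261). The IVM values of both genes spread more widely than the immature ones, with array 4 the highest and arrays 1 and 5 the lowest.

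Several other large-subunit genes had differences of about the same direction that did not pass. *RPL7*, which binds RNA in the large subunit, averaged 11.23 ± 1.04 in IVM oocytes and 12.50 ± 0.46 in immature oocytes (SD, n = 5 each), a difference of -1.27 (SE 0.50, adjusted p = 0.0997). *RPL17* and *RPL4*, which line or border the tunnel through which the new protein leaves, differed by -1.23 (SE 0.46, adjusted p = 0.0833) and -1.07 (SE 0.43, adjusted p = 0.102). The differences of *RPL18* (-1.19, SE 0.47, adjusted p = 0.0967), *RPL26* (-1.06, SE 0.37, adjusted p = 0.0657) and *RPL10A* (-0.97, SE 0.54, adjusted p = 0.242) were of like size. In each of these 6 genes IVM arrays 1 and 5 lay below every immature array, and IVM array 4 lay inside the immature range. Testing only the 9460 varying probe sets put *RPL7*, *RPL17*, *RPL18*, *RPL4* and *RPL26* past 0.05, with *RPL19*, the brighter probe set of *RPL21* and *RPS24*, for 13 lower and 9 higher of 77 (33.1% and 40.4% of all probe sets in that fit).

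**Figure D4:**
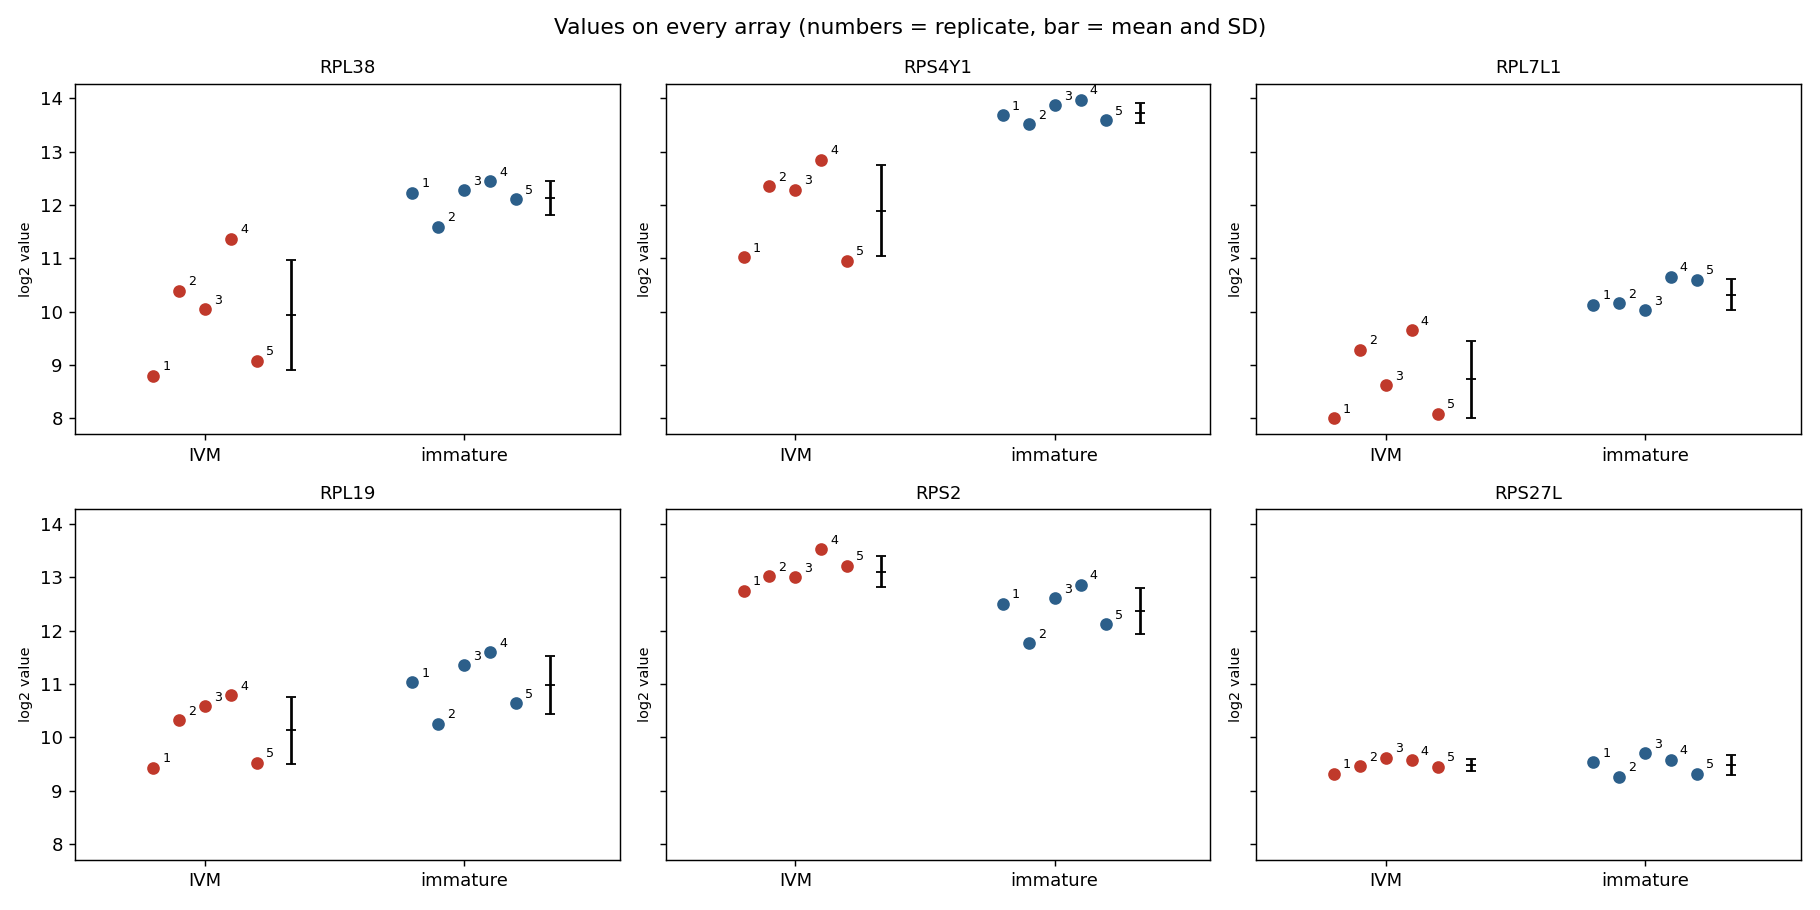
Log2 values (y axis) of 6 members on the 5 IVM arrays (red, left) and the 5 immature arrays (blue, right), labelled by replicate number, with the mean and SD beside them. *RPL38*, *RPS4Y1* and *RPL7L1* do not overlap between the groups, *RPL19* and *RPS2* do, and *RPS27L* hardly moves; levels of different genes are not comparable on this scale.

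Higher values in IVM oocytes were smaller in size. *RPL27*, a large-subunit protein, had 11.42 on IVM array 1 and 11.91 to 12.08 on the other 4 IVM arrays, against 11.38, 10.88, 11.54, 11.63 and 11.01 on immature arrays 1 to 5, a difference of 0.59 (SE 0.19, adjusted p = 0.044, 0.0972 with the replicate number as a block). IVM array 1 stood apart below the other 4 IVM arrays and overlapped the immature ones. *RPL36A* averaged 10.96 ± 0.96 in IVM oocytes and 10.09 ± 0.85 in immature oocytes (SD, n = 5 each), and *RPL39*, a very small protein in the exit tunnel, 10.91 ± 0.38 in IVM oocytes and 10.26 ± 0.58 in immature oocytes. Neither passed (0.88, SE 0.57, adjusted p = 0.318, and 0.65, SE 0.31, adjusted p = 0.162). *RPL14*, also among the 10 most positive genes, differed by 0.45 with an SE of 0.68. Centring the arrays on the poly-A controls turned the difference of *RPL27* to -0.34 and would turn those of *RPL36A*, *RPL39*, *RPL14*, *RPL26L1* and *RPS9* below 0 as well, since it lowers every difference by 0.94. Under that centring 77 members were lower and 1 was higher at an adjusted p under 0.05, flat probe sets included, where 88.4% of all probe sets passed.

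In the small subunit, 1 of 27 varying probe sets was lower in IVM oocytes and 2 were higher at an adjusted p under 0.05 (24 genes). This was 11.1% of the 27, where 31.7% of all varying probe sets were lower and 34% higher. The median difference was -0.05, with 14 below 0 and 13 above. *RPS4Y1* had log2 values of 11.02, 12.35, 12.29, 12.84 and 10.95 on IVM arrays 1 to 5, against 13.69, 13.51, 13.87, 13.97 and 13.59 on immature arrays 1 to 5. Every IVM array lay below every immature array, and the difference was -1.83 (SE 0.39, adjusted p = 0.00759), 3.57-fold lower in IVM oocytes. The human gene of this name lies on the Y chromosome and has a near-identical copy on the X chromosome. Cows, the source of these oocytes, carry no Y chromosome, and which bovine gene the probe set reads was not tested. *RPS24*, needed for the maturation of small-subunit RNA, differed by -1.04 (SE 0.47, adjusted p = 0.145). *RPS6*, the ribosomal protein phosphorylated by S6 kinase, was among the most scattered, at 11.71 ± 1.21 in IVM oocytes and 12.49 ± 0.84 in immature oocytes (SD, n = 5 each), and its difference of -0.78 had an SE of 0.65.

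*RPS2*, a protein at the entry of the mRNA channel, had 12.75, 13.02, 13.00, 13.53 and 13.22 on IVM arrays 1 to 5, against 12.51, 11.76, 12.61, 12.86 and 12.13 on immature arrays 1 to 5. Its highest immature value lay above the lowest IVM value, and the difference was 0.73 (SE 0.23, adjusted p = 0.0438, 0.0652 with the replicate number as a block). *RPS3*, which also lies at the mRNA entry, was read by 3 varying probe sets, with differences of 0.69 (SE 0.22, adjusted p = 0.0462, 0.0759 with the block), 0.73 (SE 0.27, adjusted p = 0.0752) and, for the brightest, 0.44 (SE 0.27, adjusted p = 0.288). All 3 were above 0 and 1 passed. *RPS9* differed by 0.75 with an SE of 0.48 and did not pass (0.304). After centring on the poly-A controls the differences of *RPS2* and of the *RPS3* probe set that passed were -0.20 and -0.25. Leaving out single arrays moved the adjusted p of *RPS2* to between 0.0275 and 0.100, under 0.05 only without IVM array 1 or immature array 4, and that of *RPS3* to between 0.0226 and 0.0964, under 0.05 only without immature array 2 or 4.

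The stalk, which recruits translation factors to the large subunit, did not separate the groups. *RPLP0*, its base, averaged 11.40 ± 0.31 in IVM oocytes and 11.31 ± 0.72 in immature oocytes (SD, n = 5 each; 0.09, SE 0.35, adjusted p = 0.94), and *RPLP2* averaged 10.46 ± 0.91 in IVM oocytes and 11.04 ± 0.73 in immature oocytes (-0.58, SE 0.52, adjusted p = 0.493). *RPLP0* was lowest on immature array 2 and highest on immature array 4, and both of its probe sets may also read other transcripts.

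The 10 genes with the most negative differences spread more in IVM than in immature oocytes. Their SDs ran between 0.72 and 1.04 (median 0.91) in IVM oocytes and between 0.19 and 0.71 (median 0.39) in immature oocytes. For the 10 genes with the most positive differences the median SDs were 0.42 in IVM and 0.51 in immature oocytes, and for the other 45 genes 0.67 and 0.63. The genes were ordered by their difference, and this contrast of SDs was not tested. Over the 77 probe sets, 47 (61.0%) had the larger SD in IVM oocytes, against 77.7% of all varying probe sets.

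The most variable members within groups were *RPL9* (its brighter probe set, SD 1.17), *RPL13A* (1.09), which in human cells also silences mRNAs when released from the ribosome, and *RPL14* (1.09). *RPL13A* had 10.56, 12.44, 11.75, 13.29 and 10.66 on IVM arrays 1 to 5, against 12.54, 10.69, 12.69, 13.40 and 11.99 on immature arrays 1 to 5. It spanned a like range in both groups and its difference was -0.52 (SE 0.69, adjusted p = 0.663). The least variable were *RPS27L* (0.16), *RPS28* (0.22) and *RPL7A* (0.25). *RPS28* differed by -0.17 (SE 0.14, adjusted p = 0.453) and *RPL7A* by 0.17 (SE 0.16, adjusted p = 0.509), so an SE under 0.20 did not bring either past the threshold. Even these followed the common order in part, since *RPL7A* and *RPS28* were at their lowest on IVM array 1 and immature array 2.

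Paralogs, copies of a ribosomal protein gene with their own sequence, could be compared with their partners for 3 pairs. *RPL26L1* had 10.96, 10.93, 11.35, 10.22 and 11.32 on IVM arrays 1 to 5, against 10.34, 10.22, 10.57, 10.32 and 10.34 on immature arrays 1 to 5, while *RPL26* had 8.99, 10.21, 10.35, 10.72 and 9.21 on IVM arrays 1 to 5, against 10.97, 10.38, 11.21, 11.37 and 10.87 on immature arrays 1 to 5. The paralog was lowest on IVM array 4, where its partner was highest. The difference of *RPL26L1* was 0.60 (SE 0.21, adjusted p = 0.0659) and that of *RPL26* -1.06 (SE 0.37, adjusted p = 0.0657), and they differed from each other by 1.66 (SE 0.49, exact permutation test over the 10 arrays, two-sided, p = 0.0159, Benjamini-Hochberg adjusted over the 3 pairs p = 0.0476). A shift common to all probe sets of an array cancels in the test of a pair. The joint movement of the ribosomal proteins does not cancel here, since *RPL26L1* had the other sign on its component. *RPL7L1* and *RPL7* differed from each other by -0.31 (SE 0.27, exact permutation p = 0.270, adjusted p = 0.405). *RPS27L*, which p53 induces in human cells, and *RPS27* differed by -0.23 (SE 0.50, exact permutation p = 0.659, adjusted p = 0.659). *RPS27L* itself stayed between 9.26 and 9.71 on all 10 arrays, while *RPS27* had 9.71, 10.73, 11.19, 11.44 and 9.83 on the IVM arrays and 10.34, 8.83, 10.82, 11.63 and 10.12 on the immature arrays. For *RPL3*, the muscle paralog *RPL3L* was flat.

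Probe sets of the same gene disagreed in 4 genes in which at least 1 of them passed. For *RPL9*, the probe set past the strict threshold, the dimmer of 2 that vary, had 7.71, 7.53, 7.36, 7.71 and 7.46 on IVM arrays 1 to 5, against 9.16, 9.35, 8.90, 9.34 and 9.27 on immature arrays 1 to 5. Both groups were tight and far apart, and the difference was -1.65 (SE 0.11, adjusted p = 9.57e-06, 0.000929 with the replicate number as a block, a fit in which 0 members and 0% of all probe sets passed the strict threshold). Flat members sat at up to 7.60, near these IVM values, and whether the IVM values lie at a floor was not tested. The brighter probe set of *RPL9* had 10.90, 12.34, 12.15, 12.92 and 10.71 on IVM arrays 1 to 5, against 11.50, 9.22, 12.35, 12.59 and 10.90 on immature arrays 1 to 5, followed the common order of the arrays, and differed by 0.49 (SE 0.74, adjusted p = 0.724). For *RPL24*, a large-subunit protein that bridges to the small subunit, the brighter probe set had 10.75, 10.52, 9.92, 10.89 and 10.35 on IVM arrays 1 to 5, against 9.00, 9.22, 9.13, 9.20 and 9.18 on immature arrays 1 to 5. It was higher in IVM oocytes without overlap, by 1.34 (SE 0.17, adjusted p = 0.000532), and was the 1 member still higher after centring on the poly-A controls (0.40, adjusted p = 0.0448). The dimmer probe set of the same gene was lower, with 8.26, 9.24, 9.10, 10.27 and 8.48 on IVM arrays 1 to 5, against 10.40, 9.97, 10.94, 10.88 and 10.15 on immature arrays 1 to 5, a difference of -1.40 (SE 0.40, adjusted p = 0.0294, and 0.00408 to 0.0707 when single arrays were left out).

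*RPL21*, a large-subunit protein, had 10.22 to 10.60 on the IVM arrays and 9.63 to 9.76 on the immature arrays by its dimmer probe set, a difference of 0.67 (SE 0.07, adjusted p = 0.000128; -0.26 after centring on the poly-A controls). By its brighter probe set it differed by -0.83 (SE 0.29, adjusted p = 0.0644). *RPL15P*, annotated as a pseudogene of *RPL15*, had 3 varying probe sets, which differed by 0.94 (SE 0.19, adjusted p = 0.00595) for the dimmest, 0.70 (SE 0.22, adjusted p = 0.0422) for the brightest and -0.55 (SE 0.33, adjusted p = 0.282) for the third. Centring on the poly-A controls brought that of the dimmest to 0.01 and turned that of the brightest to -0.23. In *RPL9*, *RPL24* and *RPL21*, a probe set that followed the common array order stood beside another that did not. In *RPL15P* all 3 probe sets were highest on array 4 in both groups. Which transcript each probe set reads was not tested.

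**Figure D5:**
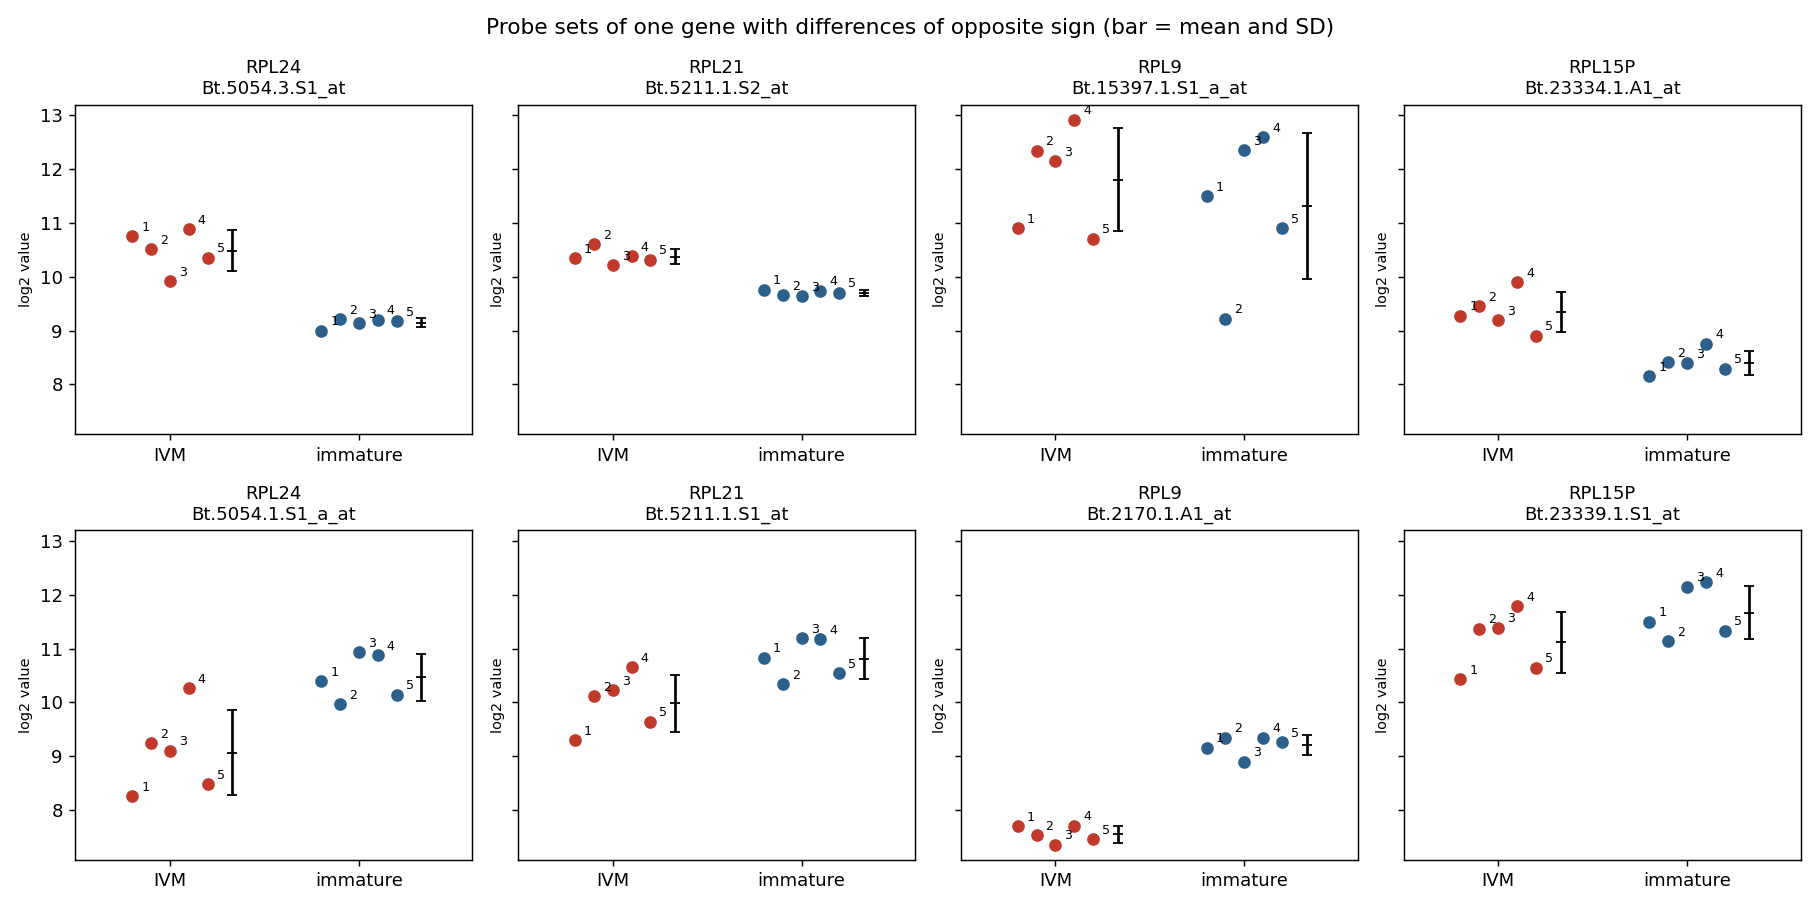
Log2 values (y axis) of probe sets of *RPL24*, *RPL21*, *RPL9* and *RPL15P* on the 5 IVM arrays (red, left) and the 5 immature arrays (blue, right), labelled by replicate, with the mean and SD. The upper probe set of each gene has a positive difference and the lower one a negative difference; centring on the poly-A controls would lower all of them by 0.94, which turns those of *RPL21* and *RPL9* in the upper row below 0.

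Genes that work with the ribosome showed both patterns. *NACA*, the alpha subunit of the complex that meets new proteins at the tunnel exit, had 9.07, 9.36, 9.76, 9.39 and 9.19 on IVM arrays 1 to 5, against 12.07, 11.85, 12.35, 11.95 and 11.92 on immature arrays 1 to 5, a difference of -2.68 (SE 0.15, adjusted p = 3.64e-06). *FAU* had 8.34, 9.35, 9.17, 9.67 and 8.63 on IVM arrays 1 to 5, against 11.40, 11.29, 11.73, 11.69 and 11.53 on immature arrays 1 to 5, a difference of -2.49 (SE 0.25, adjusted p = 0.000138). Both separated the groups further than any ribosomal protein within the rule. *BTF3*, the partner of *NACA*, was lower by a smaller amount (-0.41, SE 0.10, adjusted p = 0.0164). *RACK1*, a scaffold protein on the small subunit, had 10.09, 11.75, 11.31, 12.80 and 10.17 on IVM arrays 1 to 5, against 12.03, 10.76, 12.42, 12.90 and 11.72 on immature arrays 1 to 5, in the array order of the ribosomal proteins, and its difference of -0.74 did not pass (SE 0.62, adjusted p = 0.454). *PABPC1*, which binds poly(A) tails, was higher by 0.46 in its brightest probe set (SE 0.11, adjusted p = 0.0117), a difference smaller than the shift of the poly-A controls. Its dimmer varying probe sets differed by 0.12 (SE 0.10, adjusted p = 0.472) and 0.15 (SE 0.09, adjusted p = 0.280) and did not pass. *TPT1*, whose mRNA begins with the same kind of pyrimidine run, differed by -3.17 and -2.80 on the log2 scale in 2 probe sets, both lower in IVM oocytes, and by 0.32 to 0.54 in 4 others, which did not pass.

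The mitochondrial ribosomal proteins, the counterparts in the ribosome of mitochondria, gave other counts in the same fit. Of their 58 varying probe sets, 48 were lower and 4 higher at an adjusted p under 0.05, with a median difference of -1.79 and a median SD within groups of 0.26. Among genes of ribosome biogenesis, 12 of 16 varying probe sets were lower and 0 higher (median difference -0.98). Initiation factors (EIF symbols) had 19 lower and 11 higher of 40 (median -0.61), and elongation factors (EEF symbols) 2 lower and 3 higher of 9 (median -0.65). For the cytosolic ribosomal proteins these counts were 5 and 7 of 77, and the background over varying probe sets was 31.7% lower and 34% higher. The elongation factors shared the wide spread of the cytosolic ribosomal proteins, with a median SD of 0.50 and 90.4% of their squared within-group deviations on 1 component, against 65.6% for the mitochondrial ribosomal proteins. The ribosome-associated genes, with 13 varying probe sets from 6 genes, had a like share on 1 component (90.0%) with a smaller median SD of 0.31. Fewer of them moved together, since 9 of the 13 lay above their group mean on IVM array 4 and 8 on immature array 4. For the cytosolic ribosomal proteins it was 76 and 75 of 77.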

How the data were processed

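The values were deposited by the authors on the log2 scale, each probe set having 1 value per array. According to the methods, images were quantified in GCOS, normalized by quantiles and reduced to probe set values by FARMS. FARMS weighs signal against noise over the probes of a probe set and leaves uninformative ones almost constant. Those that span under 0.01 are called flat, which does not show that the transcript was absent. All 10 columns matched labelled samples. Control probe sets (112) were kept out, so that 24016 were tested. All 97 members take their symbol from the platform's annotation, updated through gene identifiers.

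Groups were compared in R 4.3.3 by limma 3.58.1 (lmFit, then eBayes) instead of the SAM test of the methods. Adjustment was by Benjamini-Hochberg across all 24016, at thresholds of 0.0001 and 0.05. The prior had 0.103 degrees of freedom. The fit was tested on simulated data. Python 3.11.15 with pandas 2.3.3, numpy 2.4.6 and matplotlib 3.10.9 gave the other tables and the figures. With 5 arrays per group, their number limits the precision.

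A gene with more than 1 probe set is given by the brightest unless stated (brighter and dimmer refer to the mean over the 10 arrays). Named were the 10 most positive and 10 most negative genes, members past 0.0001, paralogs with their partners, the 3 most and 3 least variable members, genes whose probe sets went both ways with 1 past 0.05, flat genes and ribosome-associated genes. Other names were chosen after their values were seen. The rule, the members and the gene lists were chosen with earlier results of these data known. Joint movement was measured as deviations from group means, without a test. Planned sequence features were not analysed here.

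The methods call a replicate pool a day of collection, and the number was fitted as a block on the reading that it marks the same day in both groups, which is not spelled out. As a check, the deviations from the group means were correlated across probe sets between the IVM and the immature array of each number, which gave r = 0.14, -0.35, 0.09, 0.67 and 0.36 for numbers 1 to 5. The highest r with an array of another number was 0.56, 0.48, 0.21, 0.36 and 0.63, above that of the same number for numbers 1, 2, 3 and 5. The alternatives were a replicate block, varying probe sets only, a trend and robust prior, centring on array medians or poly-A controls, 1 probe set per gene, no paralogs and leaving out each array.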

Additional observations from a re-analysis of the deposited data

Results flagged for a closer look

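In *RPL27* the value of IVM replicate 1, 11.42, lay apart from the other 4 IVM arrays, which were between 11.91 and 12.08. Its gap to the nearest of them was 0.736 of the range of the group, above the critical value of Dixon's test for 5 samples. This was 1 of 64 groups of 5 arrays examined, and chance gives about 1 in 20.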

How the results depend on the processing

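Against 1 member past 0.0001, there were 0 with a replicate block or 1 probe set per gene, 3 over varying probe sets only, 2 with array-median centring and 44 with poly-A centring. Against 14 past 0.05 (6 lower, 8 higher), there were 22 over varying probe sets (13 lower), 78 with poly-A centring (77 lower, 1 higher), 27 with the replicate block over varying probe sets (17 lower), chosen after seeing the data, and 7 with 1 probe set per gene (3 lower, 4 higher). The replicate block alone left 4 higher and 7 lower. In the fit over varying probe sets, 33.1% of all probe sets were lower and 40.4% higher. With the replicate block 0% of all probe sets passed 0.0001. For the other settings, poly-A centring at 0.05 aside, the share of all probe sets is not given here. A changed count there cannot be read as particular to the ribosomal proteins. Poly-A centring passed 88.4% of all probe sets and moved the median difference to -1.16. It turned *RPL15P* (brightest) to -0.23, *RPL21* (dimmer probe set) to -0.26, *RPL27* to -0.34, *RPS2* to -0.20 and *RPS3* (the probe set that passed) to -0.25, and gave 13 calls among ribosome associates, 22 in ribosome biogenesis and 14 among elongation factors (7, 14 and 7 without it, flat probe sets included). The replicate block ended the calls at 0.05 of *RPL27*, *RPS2* and *RPS3* and of no other named member.

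Leaving out single arrays gave 1 to 2 members past 0.0001 (2 without IVM 2 or 3) and 7 to 16 past 0.05. There were 7 without IVM 2 or immature 1 and 8 without IVM 5 or immature 5. Only for the fit without IVM 4 is the share of all probe sets given, 15.1% lower and 17.3% higher at 0.05. Lower calls numbered 4 to 12, with 12 without IVM 4, and higher calls 3 to 8, with 3 without IVM 2, immature 1 or immature 5, 4 without IVM 4, IVM 5 or immature 2 and 5 without immature 3. The median difference lay between -0.41 and -0.06 and the first component between 88.7% and 91.7%. The pair differences lay between 1.40 and 2.05 for *RPL26L1* (exact permutation p 0.00794 to 0.0238), -0.46 and -0.18 for *RPL7L1*, and -0.52 and 0.10 for *RPS27L*. These p-values were not adjusted over the 3 pairs, so they do not show that the adjusted p of *RPL26L1* stayed under 0.05. *RPL38*, *RPS4Y1*, *RPL7L1*, *RPL9* (dimmer), *RPL24* (brighter), *RPL21* (dimmer) and *RPL15P* (dimmest) stayed past 0.05 without any 1 array. *RPL27* passed only without IVM 1, immature 3 or immature 4 (adjusted p 0.0187 to 0.100), *RPL15P* (brightest) only without IVM 1, IVM 3 or immature 4 (0.0129 to 0.0976), and *RPL24* (dimmer) only without IVM 4, immature 2 or immature 5 (0.00408 to 0.0707). The causes were not tested.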
